A study of Homo sapiens with 4 samples.

Results

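The genes described here encode the main enzyme families that clear foreign chemicals: cytochromes P450 (CYP), UDP-glucuronosyltransferases (UGT), sulfotransferases (SULT), glutathione transferases (GST, with the membrane-bound MGST enzymes) and aldehyde dehydrogenases (ALDH). Members were chosen by gene symbol, without CYP51A1 and ALDH18A1, whose enzymes serve sterol and proline synthesis, which gave 126 of the 51103 genes in the tables. Of these, 32 had an FPKM (counts scaled to gene length and to the total of the library) of 1 or more in 2 of 4 libraries and are described one by one, and the other 94 are accounted for by family. The libraries were labelled as SCC-15, an established human cell line of oral squamous cell carcinoma. There were 2 libraries of negative control cells and 2 of cells given a lentivirus that overexpresses REEP6, an endoplasmic reticulum membrane protein. Both groups were grown in the same medium, and polyadenylated RNA was sequenced. The labels call both groups established lines and do not describe the control construct. Nothing in them says whether replicates are different cultures, and p-values therefore reflect only library-to-library spread, which may be technical.

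Xenobiotic metabolism is commonly divided into stages. P450 enzymes, anchored in the endoplasmic reticulum or mitochondria and fed electrons by partner reductases, insert oxygen into a lipophilic substrate, and aldehyde dehydrogenases oxidise reactive aldehydes to acids. Transferases of the UGT, SULT and GST families then attach glucuronic acid, sulfate or glutathione, and export pumps carry the conjugates out of the cell. Many of these enzymes also act on the body's own retinoids, steroids, vitamin D, fatty acids and amino acid breakdown products. Their genes are best known for high levels in liver, and epithelia carry their own set, much of it under the dioxin-binding aryl hydrocarbon receptor AHR and the oxidant-responsive factor NFE2L2 (NRF2).

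The libraries held between 12856256 and 15208629 counts, and REEP6 itself was present at 11.1 and 12.6 FPKM in the controls and at 20.0 and 20.9 FPKM with overexpression. REEP6 rose 1.76-fold (log2 fold change 0.82 ± 0.108 SE, n = 2 per group, edgeR adjusted p 0.00119). The defining markers of squamous epithelium were nearly absent: of 8 markers only EPCAM reached the level of 1 FPKM in 2 libraries, KRT6A had no count, and KRT5, KRT14, KRT17 and CDH1 had between 0 and 6 counts in any library. These values go against the label of a squamous carcinoma line, so the identity of the cells is in doubt, and SCC-15 stands here only as the name on the label. Of 8 hepatocyte markers 0 reached that level, and AHSG, FGB and TTR had no count. Of 8 fibroblast markers 4 did (COL3A1, LUM, PDGFRB and POSTN). The list of 8 summed to 36.6 and 34.5 FPKM in the controls and 18.3 and 18.1 FPKM with REEP6. Most of that sum was COL3A1 (25.17 and 22.06 FPKM against 14.45 and 13.92 FPKM). LUM fell further, from 6.65 and 7.91 FPKM in the controls to 1.00 and 1.35 FPKM with REEP6. PDGFRB and POSTN were also lower with REEP6. PDGFRA went the other way, from 0.663 and 0.709 FPKM to 0.986 and 1.06 FPKM. COL1A1 stayed at 0.396 FPKM or below, COL1A2 had between 0 and 6 counts and DCN between 0 and 2. The leukocyte list had 1 member at 1 FPKM in 2 libraries (LYZ) and the endothelial list had 0. The part of the lower summed fibroblast marker level in the results that follow was not tested.

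Promoter sequences show what the members that moved, and those that did not, carry in front of their start sites. RefSeq (GRCh38.p14) gives a window from 250 bases before to 50 bases after the start for 28 of the 32 members. Shown here are the 250 bases before the start of CYP3A5, the described member with the largest change (chr7:99679997-99680246, minus strand), SULT1C2, the one sulfotransferase that reached the level described (chr2:108288645-108288894, plus strand), GSTP1, the most abundant member (chr11:67583562-67583811, plus strand), and CYP1A1, the standard AHR target gene (chr15:74725529-74725778, minus strand). Each is written 5′ to 3′ in the direction of transcription, and capitals mark any match, on either strand, to 3 motifs: the core bound by AHR with ARNT (GCGTG, also one form of the hypoxia-response core), the antioxidant response core bound by NFE2L2 with a small MAF protein (TGACNNNGC, which can overlap an AP-1 site) and a TATA box, spelled out after the sequences.
CYP3A5: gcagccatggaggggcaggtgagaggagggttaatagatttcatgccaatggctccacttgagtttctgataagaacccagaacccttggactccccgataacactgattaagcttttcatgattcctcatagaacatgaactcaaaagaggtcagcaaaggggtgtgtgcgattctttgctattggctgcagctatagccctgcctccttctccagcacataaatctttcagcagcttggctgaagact
SULT1C2: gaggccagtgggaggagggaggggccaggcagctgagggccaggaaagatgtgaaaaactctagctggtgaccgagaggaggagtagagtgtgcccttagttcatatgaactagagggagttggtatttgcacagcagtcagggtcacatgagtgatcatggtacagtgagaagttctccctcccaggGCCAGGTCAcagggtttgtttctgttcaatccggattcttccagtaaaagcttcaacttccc
GSTP1: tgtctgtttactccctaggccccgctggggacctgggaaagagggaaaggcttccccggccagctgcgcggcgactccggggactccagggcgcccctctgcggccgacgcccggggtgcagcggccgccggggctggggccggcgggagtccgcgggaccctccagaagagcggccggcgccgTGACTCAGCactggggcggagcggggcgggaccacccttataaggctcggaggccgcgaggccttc
CYP1A1: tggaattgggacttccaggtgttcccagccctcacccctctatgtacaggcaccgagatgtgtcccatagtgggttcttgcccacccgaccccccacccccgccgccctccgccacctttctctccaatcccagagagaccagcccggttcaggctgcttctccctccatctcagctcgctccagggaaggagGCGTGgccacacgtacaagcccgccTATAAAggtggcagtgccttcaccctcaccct

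In these 250 bases CYP3A5 had no match to any of the 3 motifs. SULT1C2 had 1 match to the antioxidant core, on the reverse strand (GCCAGGTCA, 62 bases before the start), and GSTP1 had 1 on the forward strand (TGACTCAGC, 66 bases before the start). CYP1A1 had 1 AHR core (57 bases before the start) and 1 TATA box, searched as TATAAA (32 bases before the start). Over whole windows, the AHR core was found in 14 of the 28 members (50% against 40.6% of 27305 genes with a window), the antioxidant core in 6 (21.4% against 16.1%) and the TATA box in 3 (10.7% against 14.0%). A match is a description of the letters, not evidence of binding.

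Enzyme levels were dominated by the glutathione transferases. Summed over members, GST transcripts came to 359 and 369 FPKM in the controls and 399 and 434 FPKM with REEP6, ALDH transcripts to between 72.0 and 75.2 FPKM in all 4 libraries, and CYP transcripts to 46.3 and 48.6 FPKM in the controls and 39.5 and 40.3 FPKM with REEP6. The FPKM sum over all genes was itself higher with REEP6 (288404 and 287580) than in the controls (262497 and 273154). The family sums are not corrected for this, so they do not by themselves show a change between groups. GSTP1 alone made up 56.7% and 58.6% of the GST sum in the controls and 61.5% and 64.9% with REEP6. Of 20 GST genes 11 were described, of 17 ALDH genes 9, of 55 CYP genes 11, of 13 SULT genes 1 and of 21 UGT genes 0. No CYP gene exceeded 10 FPKM in any library, while GSTP1 stayed above 200 FPKM in all 4.

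**Figure D1:**
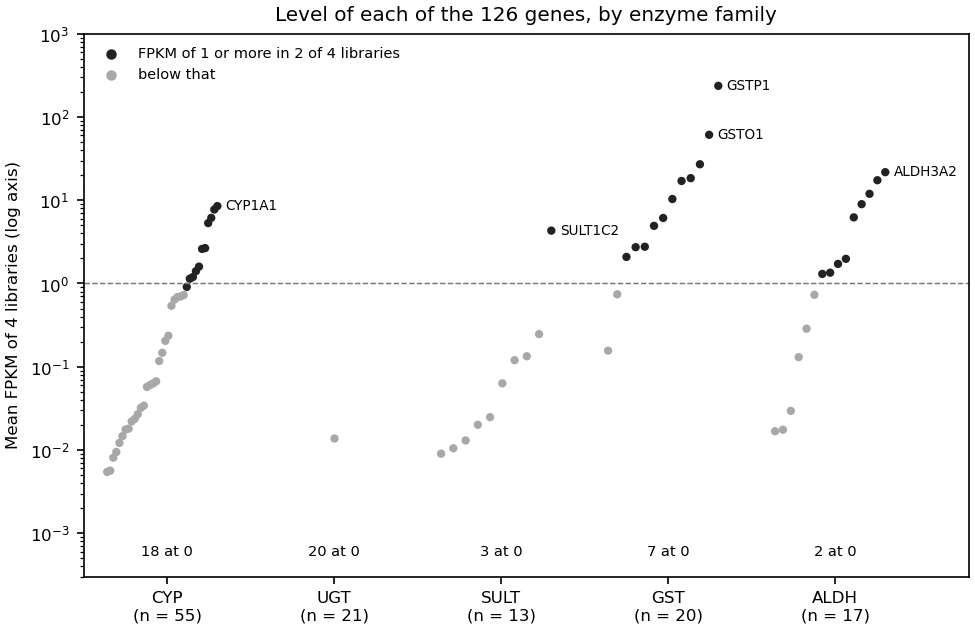
Mean FPKM over the 4 libraries of each of the 126 genes on a log axis, by family, ordered from low to high within a family; black points have 1 FPKM or more (dashed line) in 2 of 4 libraries, grey points do not, and the text at the foot gives the number with no count in any library. GST genes reach the highest levels, and 20 of 21 UGT genes have no count.

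Glucuronidation genes were almost silent. Of the 21 UGT genes 20 had no count in any library, and the remaining one, UGT2A1, had 0 or 1 count per library. A count of 0 allows up to 3 counts, which is 0.197 to 0.233 CPM (counts scaled to the total of the library) and covers counting error only. The 9 UGT1A genes on chromosome 2 share their last exons in GENCODE 29: between 40.6% and 80.03% of the exonic bases of each lie in other genes on the same strand, and how reads that match several genes were counted is not given in the sources used here.

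With REEP6 overexpression, 10 of the 32 described members passed an edgeR adjusted p of 0.05, of which 4 rose and 6 fell. CYP3A5, SULT1C2, CYP27C1, ALDH3B1, CYP2R1 and GSTK1 fell, and ALDH6A1, CYP2S1, MGST2 and GSTP1 rose. That is 31.25% of the members tested, beside 25.0% of all 13077 genes tested (10.9% higher and 14.2% lower), so the share of members called was near the background. The FPKM ranges of the groups did not overlap for 22 of the 32 members (68.75%), beside 63.5% of all genes tested. The median log2 fold change was 0.12 over the 32 members and -0.01 over all genes. CYP3A5 and CYP2S1 reached 1 FPKM in 1 group only, so they entered the test through the group in which they were high. Scaling the libraries to equal FPKM sums shifted the median of all genes to -0.14 and the calls of all genes from 1422 higher and 1853 lower (43.4% higher) to 661 and 2824 (19.0%), and under it 2 members were called higher and 9 lower.

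**Figure D2:**
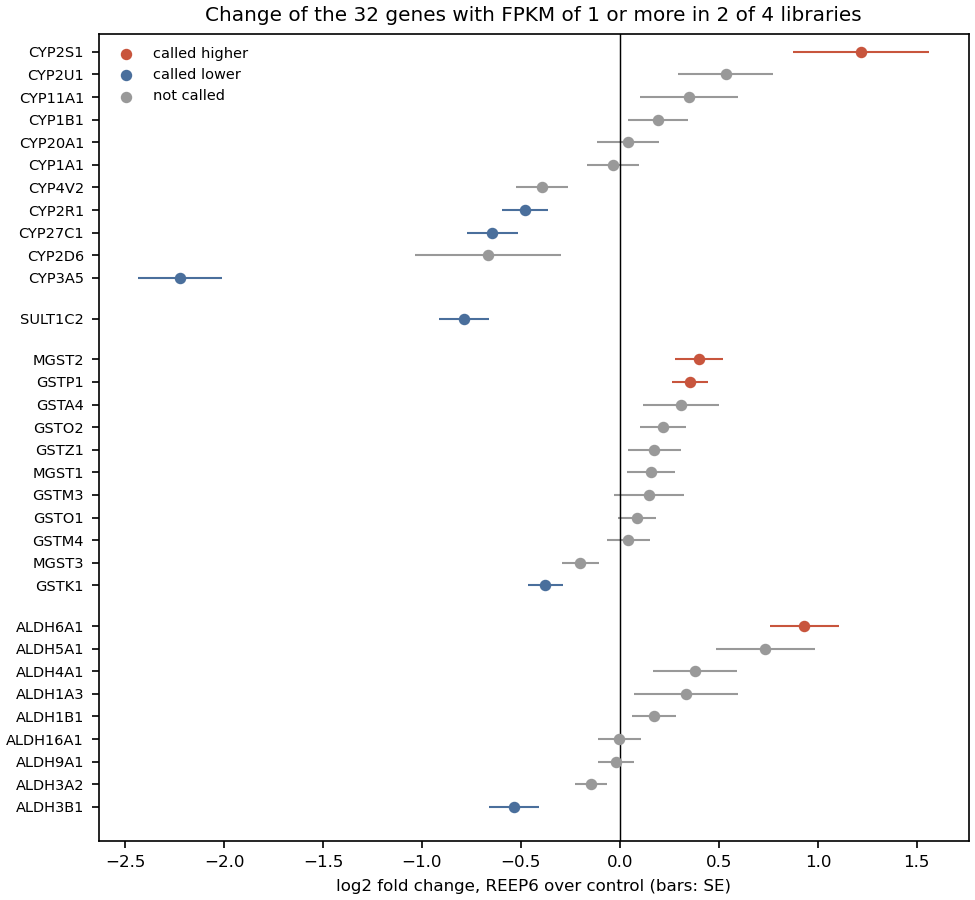
Log2 fold change of REEP6 overexpression over control for the 32 described genes, by family, with bars of 1 standard error (edgeR, 2 libraries per group); red and blue points passed an adjusted p of 0.05. CYP3A5 lies farthest to the left, at -2.22, and CYP2S1 farthest to the right, at 1.22.

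Among the P450 genes, CYP3A5, CYP27C1 and CYP2R1 fell and CYP2S1 rose, while the other 7 described CYP genes were not called, CYP1A1 and CYP1B1 among them. Of the 11, 36.4% were called, beside 25.0% of all genes tested, and their median log2 fold change was -0.03. CYP3A5, a drug-oxidising enzyme of the CYP3A subfamily that is often found outside the liver (chromosome 7, 99648194 to 99680026, minus strand, GRCh38), had 1.94 and 1.83 FPKM in the controls and 0.369 and 0.423 FPKM with REEP6, from counts of 169, 188, 33 and 38. Both control libraries lay far above both REEP6 libraries; in bulk RNA, fewer cells that make a transcript and less of it per cell cannot be told apart. Its transcript fell 4.66-fold, from 1.89 ± 0.0820 to 0.396 ± 0.0380 FPKM (mean ± SD of 2 libraries; log2 fold change -2.22 ± 0.213 SE, edgeR adjusted p 0.000320). On the compressed log2(FPKM + 1) scale limma gave -1.05. The sequence shared with other genes was small, 2.41% of its 50-base windows. The other CYP3A genes CYP3A4, CYP3A7 and CYP3A43 were far below the level described.

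CYP27C1 (chromosome 2, 127184120 to 127220078, minus strand), the mitochondrial P450 that desaturates vitamin A in skin, had 6.93 and 8.15 FPKM in the controls and 4.79 and 4.69 FPKM with REEP6. The groups were apart and the REEP6 libraries were close together. It fell 1.56-fold (log2 fold change -0.64 ± 0.1305 SE, edgeR adjusted p 0.00750). CYP2R1 (chromosome 11, 14877440 to 14892252, minus strand), the hydroxylase that carries out the first step of vitamin D activation, had 8.51 and 9.65 FPKM in the controls and 6.16 and 6.64 FPKM with REEP6. It fell 1.39-fold (log2 fold change -0.48 ± 0.115 SE, edgeR adjusted p 0.0152). Leaving out control replicate 2 ended this call (log2 fold change -0.36, adjusted p 0.0816) and so did leaving out REEP6 replicate 1 (-0.43, adjusted p 0.0636).

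CYP2S1 (chromosome 19, 41193049 to 41207539, plus strand), a P450 of epithelia outside the liver that dioxin can induce, had 0.460 and 0.641 FPKM in the controls and 1.18 and 1.36 FPKM with REEP6. The counts were low, 17 and 28 against 45 and 52, with the groups apart. It rose 2.33-fold (log2 fold change 1.22 ± 0.343 SE, edgeR adjusted p 0.0291). The call ended without any one of control replicate 1 (adjusted p 0.0858), REEP6 replicate 1 (0.0542) and REEP6 replicate 2 (0.115), with DESeq2 (adjusted p 0.0647) and with limma (0.0849 on log2(FPKM + 1), where the log2 fold change was 0.55). 

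The AHR target genes that oxidise polycyclic hydrocarbons gave no call. CYP1A1, whose upstream sequence with its AHR core is shown above, had 9.10 and 8.29 FPKM in the controls and 9.02 and 7.64 FPKM with REEP6. The groups overlapped, and the log2 fold change was -0.03 ± 0.1305 (SE), with a sign that turned positive without control replicate 1 (0.03) or REEP6 replicate 2 (0.09). CYP1B1 had 2.43 and 2.47 FPKM against 2.55 and 2.95 FPKM (log2 fold change 0.19 ± 0.154 SE). CYP1A2, the hepatic neighbour of CYP1A1 on chromosome 15, was below the level described, with 21 and 36 counts (control) and 14 and 11 (REEP6).

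The other 5 described P450 genes were not called either. CYP4V2, a fatty acid hydroxylase whose loss causes a crystalline retinal dystrophy, came closest to the threshold, with 3.08 and 3.02 FPKM in the controls and 2.06 and 2.48 FPKM with REEP6 (log2 fold change -0.39 ± 0.132 SE, edgeR adjusted p 0.0547). It did pass in 5 of 16 alternative settings, among them library totals and the fit without REEP6 replicate 2. CYP2U1, a long-chain fatty acid hydroxylase, had 0.957 and 1.36 FPKM against 1.39 and 1.92 FPKM (log2 fold change 0.53 ± 0.239 SE, edgeR adjusted p 0.1296), and passed without control replicate 2 or without REEP6 replicate 1. CYP11A1, the enzyme that cuts the cholesterol side chain to start steroid synthesis, had 1.54 and 1.30 FPKM against 1.49 and 2.05 FPKM, with overlapping groups, and 28.96% of its exonic bases lie opposite other genes. CYP20A1, an orphan P450, stood at 5.29 ± 0.158 and 5.34 ± 0.642 FPKM (SD, n = 2). CYP2D6, a drug-metabolising P450, had 1.78 and 1.18 FPKM against 0.680 and 1.14 FPKM (log2 fold change -0.67 ± 0.369 SE). Of its 50-base windows 34.4% also occur in its neighbours CYP2D7 and CYP2D8P, so its counts are uncertain.

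**Figure D3:**
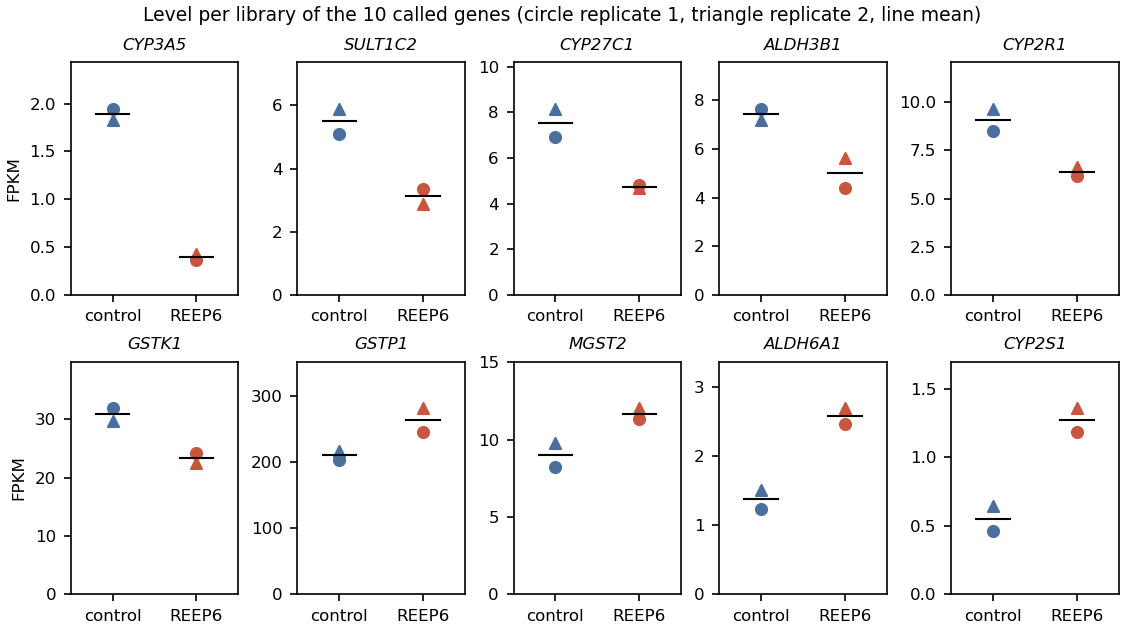
FPKM in each library of the 10 genes that passed an edgeR adjusted p of 0.05, ordered from the largest fall (top left) to the largest rise (bottom right); circles are replicate 1, triangles replicate 2 and lines the mean of 2 libraries, with each axis starting at 0. In all 10 panels both control points lie on one side of both REEP6 points, which held for 63.5% of all genes tested. The panels were chosen by the test on these same libraries, so this separation is no further support for the calls.

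The sulfotransferase transcript fell. SULT1C2, a cytosolic enzyme that sulfonates phenols (chromosome 2, 108288639 to 108309915, plus strand), made up between 80.3% and 91.9% of the summed SULT level. It had 5.11 and 5.89 FPKM in the controls and 3.36 and 2.89 FPKM with REEP6. Both REEP6 libraries lay below both controls. The fall was 1.73-fold, from 5.50 ± 0.554 to 3.13 ± 0.335 FPKM (mean ± SD of 2 libraries; log2 fold change -0.79 ± 0.125 SE, edgeR adjusted p 0.00252). The other 12 SULT genes were below the level described, the highest at 0.539 FPKM in 1 library, and 3 of them had no count. SULT1A3 and SULT1A4 are near-identical copies, with 81.4% and 97.3% of their windows shared, and their counts are uncertain.

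Glutathione transferases moved in both directions by small amounts. Of 11 described genes GSTP1 and MGST2 rose, GSTK1 fell and 8 were not called (27.3% called, beside 25.0% of all genes). The median log2 fold change was 0.16, or 0.03 with equal FPKM sums, where 0 rose and 2 fell. GSTP1 (chromosome 11, 67583595 to 67586656, plus strand), the soluble transferase abundant in many carcinomas, had 204 and 217 FPKM in the controls and 245 and 281 FPKM with REEP6. The groups were apart, and the 2 REEP6 libraries differed more from each other than the controls did. It rose 1.28-fold (log2 fold change 0.35 ± 0.0924 SE, edgeR adjusted p 0.0218). The call ended without control replicate 1 (adjusted p 0.0640), without REEP6 replicate 2 (0.189), with equal FPKM sums (0.129) and with limma on log2(FPKM + 1) (0.0934).

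MGST2 (chromosome 4, 139665768 to 139740745, plus strand), a membrane enzyme that can make leukotriene C, had 8.26 and 9.77 FPKM in the controls and 11.3 and 12.0 FPKM with REEP6. It rose 1.32-fold (log2 fold change 0.40 ± 0.122 SE, edgeR adjusted p 0.0397). The call ended in 11 of 17 alternative settings, among them DESeq2 (adjusted p 0.0699), limma on log2(FPKM + 1) (0.0833), equal FPKM sums (0.127) and the fits without control replicate 1 (0.157), REEP6 replicate 1 (0.0642) or REEP6 replicate 2 (0.136). Of its exonic bases 7.92% lie opposite MAML3, which had 172 and 149 counts (control) and 201 and 199 (REEP6). GSTK1 (chromosome 7, 143244093 to 143270854, plus strand), the transferase of mitochondria and peroxisomes, had 31.9 and 29.7 FPKM in the controls and 24.1 and 22.4 FPKM with REEP6. It fell 1.30-fold (log2 fold change -0.38 ± 0.0904 SE, edgeR adjusted p 0.0154). The groups were apart, and the call ended without REEP6 replicate 2 (adjusted p 0.118).

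The remaining glutathione transferases differed less between groups. GSTO1, the omega-class enzyme that reduces dehydroascorbate and removes glutathione from proteins, was the second most abundant member, at 63.6 and 56.1 FPKM in the controls and 64.4 and 60.4 FPKM with REEP6. Its groups overlapped, and its log2 fold change of 0.09 ± 0.0962 (SE) became -0.05 with equal FPKM sums. The membrane enzyme MGST3 had 17.9 and 18.9 FPKM against 14.7 and 16.7 FPKM (log2 fold change -0.20 ± 0.0924 SE, edgeR adjusted p 0.141), and passed as lower with equal FPKM sums. MGST1, which protects membranes from lipid peroxides, had 15.7 and 19.5 FPKM against 17.5 and 21.0 FPKM, with replicate 2 higher in both groups and overlapping ranges, and passed as higher without control replicate 2 (log2 fold change 0.35, edgeR adjusted p 0.0481). GSTA4, which conjugates the lipid peroxidation product hydroxynonenal, had a log2 fold change of 0.31 ± 0.192 (SE). GSTO2 had 0.22 ± 0.117, GSTZ1, an enzyme of tyrosine breakdown, 0.17 ± 0.132, GSTM3 0.15 ± 0.178 and GSTM4 0.04 ± 0.107 (log2 fold change ± SE). The sign for GSTM4 turned with equal FPKM sums (-0.09) and without REEP6 replicate 1 (-0.02), and 16.95% of its windows are shared, chiefly with GSTM2, GSTM1 and GSTM5.

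Among the aldehyde dehydrogenases ALDH6A1 rose, ALDH3B1 fell and 7 of 9 were not called (22.2% called, beside 25.0% of all genes). The median log2 fold change was 0.17, or 0.04 with equal FPKM sums. ALDH6A1 (chromosome 14, 74056850 to 74084493, minus strand), the mitochondrial enzyme that oxidises methylmalonate semialdehyde in valine breakdown, had 1.23 and 1.52 FPKM in the controls and 2.47 and 2.70 FPKM with REEP6. Both REEP6 libraries lay above both controls. It rose 1.91-fold, from 1.38 ± 0.199 to 2.58 ± 0.166 FPKM (mean ± SD of 2 libraries; log2 fold change 0.93 ± 0.173 SE, edgeR adjusted p 0.00506). Of its exonic bases 10.0% lie opposite BBOF1, whose counts were 29 and 54 (control) and 40 and 41 (REEP6), beside 106, 154, 218 and 240 for ALDH6A1. ALDH3B1 (chromosome 11, 68008578 to 68029282, plus strand), which oxidises lipid aldehydes at membranes, had 7.65 and 7.19 FPKM in the controls and 4.40 and 5.65 FPKM with REEP6. It fell 1.45-fold (log2 fold change -0.54 ± 0.125 SE, edgeR adjusted p 0.0137). Leaving out REEP6 replicate 1 ended the call (log2 fold change -0.37, adjusted p 0.0971), as did limma on log2(FPKM + 1) (adjusted p 0.0601).

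Other mitochondrial aldehyde dehydrogenases had positive estimates that did not pass. ALDH5A1, which clears succinate semialdehyde from GABA, had 0.788 and 1.25 FPKM in the controls and 1.82 and 1.54 FPKM with REEP6 (log2 fold change 0.73 ± 0.250 SE, edgeR adjusted p 0.0571). It passed in 5 of 16 alternative settings, among them the fits without control replicate 2 and without REEP6 replicate 2. ALDH4A1, an enzyme of proline breakdown, had 0.38 ± 0.211 and ALDH1B1 0.17 ± 0.111 (log2 fold change ± SE), and 41.1% of the exonic bases of ALDH4A1 lie in AL080251.1 on the same strand. ALDH1A3, which makes retinoic acid, had 1.41 and 0.923 FPKM against 1.68 and 1.20 FPKM, with overlapping groups, and 27.5% of its exonic bases lie opposite AC015712.2. ALDH3A2, the most abundant member of the family, is the fatty aldehyde dehydrogenase of the endoplasmic reticulum. It had 23.5 and 22.6 FPKM against 20.3 and 20.6 FPKM (log2 fold change -0.15 ± 0.0825 SE, edgeR adjusted p 0.224), and passed as lower with equal FPKM sums. ALDH9A1, an enzyme of carnitine synthesis, stood at 17.7 ± 0.617 and 17.1 ± 0.245 FPKM, and the little-characterised ALDH16A1 at 9.07 ± 0.250 and 8.88 ± 0.858 FPKM (SD, n = 2).

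The level of 1 FPKM that separated described members from the rest fell between close values. Just inside it were CYP2S1 (0.460, 0.641, 1.18 and 1.36 FPKM in the order control replicates 1 and 2, REEP6 replicates 1 and 2), CYP2D6 and CYP2U1. Just outside it were GSTT2 (0.526, 0.722, 0.893 and 0.825 FPKM), the folate enzyme ALDH1L1 (0.777, 0.566, 0.793 and 0.789 FPKM) and CYP27B1, the enzyme that makes active vitamin D (0.520, 0.784, 0.835 and 0.765 FPKM). GSTT2 shares 81.1% of its 50-base windows with GSTT2B, so its counts, and its side of the level, are uncertain. Of the 94 members below the level, 50 had no count in any library and 20 had at least 10 counts in sum. When no filter was applied 1 of them passed, CYP4F12, a fatty acid hydroxylase (edgeR adjusted p 5.52e-05; named with its values already seen). Control libraries had 25 and 16 counts and REEP6 libraries 0 and 2. The sums, 41 against 2, give a ratio of 19.4 relative to total counts, with a 95% exact interval of 5.04 to 165 that covers counting error only.

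Genes that regulate, feed and follow these enzymes were read from 4 lists of 70 genes, of which 50 were tested. In all, 6 rose and 9 fell, or 30.0% of those tested, beside the 25.0% of all genes. Among 9 regulators the receptor gene AHR fell from 29.7 ± 2.89 to 19.5 ± 2.08 FPKM (mean ± SD of 2 libraries; log2 fold change -0.58 ± 0.104 SE, edgeR adjusted p 0.00425). NFE2L2 fell by 0.42 on the log2 scale, and KEAP1, which marks NFE2L2 for degradation, rose by 0.32 (edgeR adjusted p 0.0129 and 0.0365). The NFE2L2 call ended without control replicate 2 or REEP6 replicate 1, and the KEAP1 call without any one of control replicate 2 and the REEP6 libraries. The AHR partner ARNT and the AHR target genes AHRR and TIPARP were not called. NR1I2, NR1I3 and HNF4A, nuclear receptors that drive these enzymes in liver, were below the level of 1 FPKM.

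Of 20 electron donor and cofactor genes 3 rose and 3 fell (30.0% called, beside 25.0% of all genes), with a median log2 fold change of 0.06. POR, the reductase that supplies the microsomal P450s, was not called (log2 fold change 0.26 ± 0.0930 SE, edgeR adjusted p 0.0640), and FDXR, the reductase that starts electron supply to mitochondrial P450s, rose by 0.57. CYB5R3, the cytochrome b5 reductase, rose by 0.29. UGP2, which makes UDP-glucose ahead of glucuronic acid, fell from 21.7 ± 1.52 to 14.3 ± 0.113 FPKM (mean ± SD of 2 libraries; log2 fold change -0.57). GSR, which regenerates glutathione, fell by 0.38 and GCLC, the catalytic subunit of its first synthetic enzyme, fell by 0.37. GCLM, the other subunit, rose by 0.48, and GSS, which completes glutathione synthesis, was not called (log2 fold change 0.23). POR, GCLM and GSS lie outside the naming rule, and GCLM and GSS were chosen after their values were seen. Of these 6 calls only that for UGP2 held in all 17 alternative settings, and the GCLM call ended in 9 of them.

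Of 15 other enzymes tested, MAOA, the mitochondrial monoamine oxidase, fell 4.19-fold, from 3.74 and 2.81 FPKM to 0.779 and 0.748 FPKM (log2 fold change -2.07 ± 0.208 SE, edgeR adjusted p 0.000409). CBR3, a carbonyl reductase, rose by 1.54 on the log2 scale. MAOA and CBR3 reached 1 FPKM in 1 group only, so, like CYP3A5 and CYP2S1, they entered the test through the group in which they were high. CBR3 was low, at 0.665 and 0.506 FPKM against 1.68 and 1.67 FPKM, and its call ended without any one of the 4 libraries. The NFE2L2 target NQO1 was not called (log2 fold change 0.22 ± 0.0875 SE, edgeR adjusted p 0.0886). Among 6 export pumps tested 3 fell and 0 rose, beside 14.2% of all genes tested called lower and 10.9% called higher. ABCC2, the pump for glutathione and glucuronide conjugates, fell from 47.0 and 48.3 FPKM to 18.6 and 18.4 FPKM, or 2.53-fold (log2 fold change -1.34 ± 0.0823 SE, edgeR adjusted p 3.35e-05). ABCC4 and ABCC3 each fell by 0.37, and those calls ended without control replicate 2 and without 1 of the REEP6 libraries. With equal FPKM sums 0 of the 50 genes in the lists were called higher and 15 lower, beside 661 and 2824 of all 13077 genes.

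**Figure D4:**
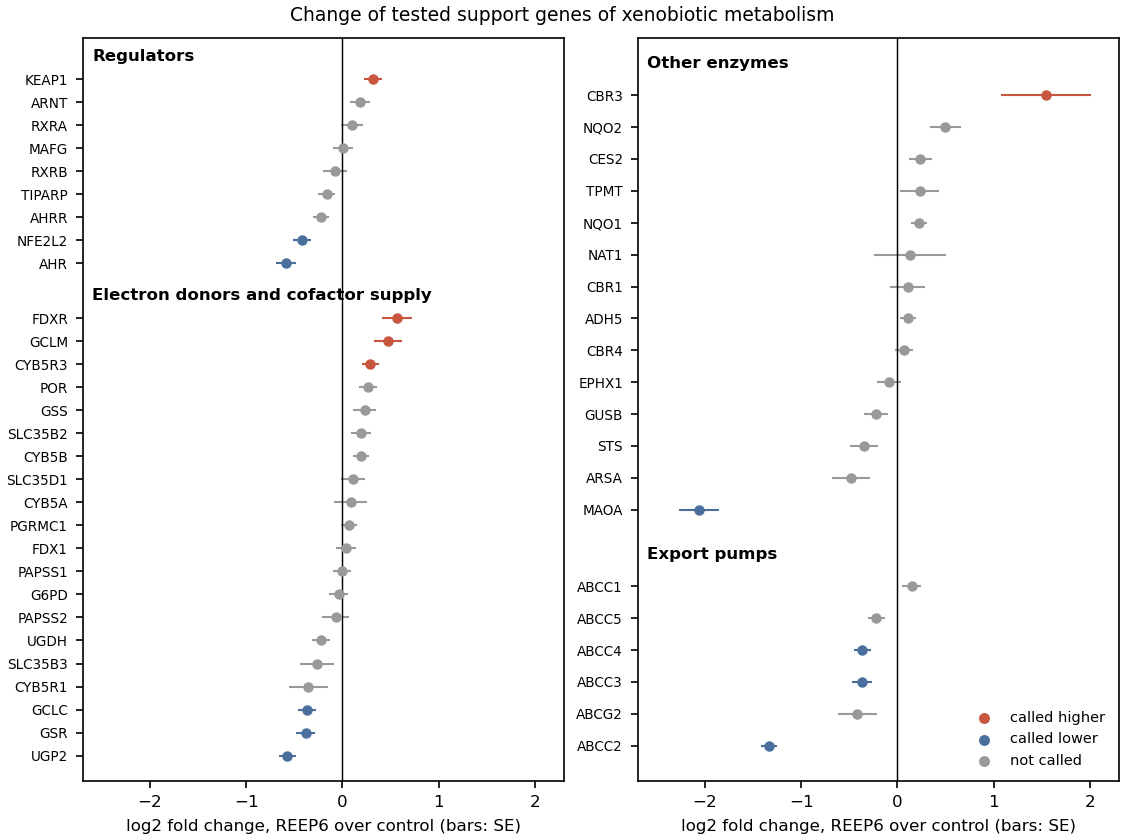
Log2 fold change of REEP6 overexpression over control for the tested genes of the 4 support lists that are reported here, with bars of 1 standard error (edgeR, 2 libraries per group); red and blue points passed an adjusted p of 0.05. MAOA (-2.07) and ABCC2 (-1.34) lie farthest to the left and CBR3 (1.54) farthest to the right.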

How the data were processed

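Polyadenylated RNA of 4 libraries labelled SCC-15 was analysed. The authors deposited 1 table per library with raw counts and FPKM for 51103 genes, per the file headers. The submitters' processing notes list HISAT2, HTSeq 0.13.5 and GRCh38, without roles; the sources used here give neither annotation nor strand setting. Count over FPKM gave 1 length per gene for 100% of 25261 genes with counts in 2 or more libraries (relative tolerance 0.0001), so the deposited FPKM was scaled to total counts. Total counts were 12856256 and 15208629 (control) and 13236417 and 13302967 (REEP6).

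The 13077 genes that reached 1 FPKM in 2 libraries were fitted with edgeR 4.0.16 (R 4.3.3) by its quasi-likelihood method on counts. The fit used TMM scaling, 1 term for the group and 2 residual degrees of freedom. It moderates the spread of each gene with that of all genes along an abundance trend, so p-values rest partly on other genes. Tests were two-sided with Benjamini-Hochberg adjustment over all 13077 genes and a threshold of 0.05. The standard error is the log2 fold change over the square root of the F statistic. With 2 libraries a group, exact permutation gives no p under 0.333 and was not used. On simulated data for this comparison (13077 genes, 200 changed) the method recovered 46% of genes changed 1.5-fold, 96% changed 2-fold and 88% changed 3-fold, with 0 false calls. The simulation gave every gene the same spread between libraries (coefficient of variation 9.35%) and changed far fewer genes than the 3275 called here. Its rates therefore cannot be carried over to these data. Within each group the libraries differed beyond counting noise (chi-square per degree of freedom 9.58 for control and 5.68 for REEP6).

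Every called member was named, uncalled ones within their family, and of each support list up to 5 called genes with the smallest p. GCLM and the support genes named without a call (ARNT, AHRR, TIPARP, NR1I2, NR1I3, HNF4A, POR, GSS and NQO1) lie outside this rule. Members, lists and tests were chosen with earlier results of these data known. Positions, exon overlap and shared 50-base windows are from GENCODE 29 (GRCh38). Alternatives were other scalings, filters, dispersions and thresholds, DESeq2 1.42.0, limma 3.58.1 with pseudocounts of 1 and 0.1, a replicate block and leaving out each library; a group left with 1 library is assumed to vary like the other. Some genes of the support lists are counted in the totals but not reported here.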

Additional observations from a re-analysis of the deposited data

How the results depend on the processing

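Of the 10 called members, CYP3A5, SULT1C2, CYP27C1 and ALDH6A1 kept their call in every alternative that tested them, and none of the 10 changed sign in any. Members called higher and lower (4 and 6 in the main analysis) ranged over 1 to 7 and 4 to 6 when 1 library was left out. Calls over all genes (3275) then ranged from 2212 to 3119, those in CYP (4) from 3 to 4, in GST (3) from 0 to 4, in ALDH (2) from 1 to 3, and support genes higher (6) from 1 to 3 and lower (9) from 4 to 9. The number of members called higher was 2 with equal FPKM sums, 2 with DESeq2, 1 with either limma pseudocount, 1 with a minimum of 5 FPKM (fewer genes tested) and 1 at an adjusted p of 0.01, where 3 were lower. Calls over all genes were 1906 and 1830 with limma on log2(FPKM + 1) and log2(FPKM + 0.1), and 1392 at an adjusted p of 0.01. Support genes called higher were 3 with library totals, 0 with equal FPKM sums (15 lower), 2 and 1 with limma, 3 without an abundance trend and 0 at 0.01 (4 lower). By family, limma called 1 GST and 1 ALDH gene with either pseudocount, a minimum of 5 FPKM left 2 CYP and 1 ALDH, and a threshold of 0.01 left 2 CYP, 0 GST and 1 ALDH. Where construction does not show it, the cause was not tested. Of 22 uncalled members 6 passed in at least 1 alternative and 6 changed sign in at least 1.

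The replicate numbers are shared between groups but the labels do not say that they pair the libraries. Deviations of same-numbered libraries from their group means correlated with r = 0.27 over 13077 genes, which are not independent. With a replicate block 6022 of the 13077 genes were called, 2960 higher and 3062 lower. Of the members 7 were higher and 9 lower, and 6 CYP, 5 GST and 4 ALDH genes passed. Of the support genes 13 were higher and 17 lower. Few counts limit CYP2S1, CBR3 and the members below 1 FPKM.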
